A study of Sus scrofa domesticus with 12 samples.

Results

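The translation initiation and elongation factors were taken as every row of the abundance table whose gene name begins with EIF or EEF followed by a digit, which gave 48 of 11506 named genes. RNA-seq was performed on the peroneous tertius (PT) muscle, a dorsiflexor of the lower hindlimb, of female Yorkshire Cross pigs about 6 months old, harvested 12 weeks after surgery. In volumetric muscle loss (VML), a piece of about 3 × 3 × 1 cm was cut from the middle of the muscle. The 12 libraries came from 12 limbs of 11 pigs. There were 2 sham-operated limbs (Sham; muscle exposed, nothing removed), 2 non-repaired VML limbs (No repair), 2 VML limbs filled with a hyaluronic acid hydrogel (HA, here Hya-repaired) and 6 VML limbs labelled ECM-SIS. SIS is porcine small intestinal submucosa, an acellular extracellular matrix (ECM). The study also used a urinary bladder matrix and its text divides these 6 limbs between the 2 materials, which the sample labels do not, so they were kept as 1 ECM-repaired group. Pig 017 gave a non-repaired left limb and a Hya-repaired right limb, and every other pig gave 1 limb, so p-values measure the spread between these limbs.

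Initiation factors bring the initiator tRNA, the capped mRNA and the small ribosomal subunit together, and the large subunit joins once the start codon is found. Elongation factors then deliver each charged tRNA and move the ribosome along by a codon. In adult skeletal muscle fibers EEF1A2, the muscle and nerve form of elongation factor 1A, is known to replace EEF1A1, which most other cells use. EEF1A2 had no row in the table and is not analysed here, so that pair could not be compared, and EEF1A1 is given alone. Measurements are TPM (transcript abundance relative to the library's total), which are scaled per length and per library, so levels can be compared between genes.

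A member was tested if every library of some condition held 1 TPM or more of it, which 45 of the 48 met. EIF4E1B, a form of the cap-binding protein known from oocytes, was listed at 0 in both shams and between 0 and 0.275 TPM in injured limbs. EIF1AY was listed at 0 in 11 libraries and at 0.0279 TPM in the other. EIF2C3, matched by its name, is an older symbol of AGO3, an Argonaute protein of small RNA silencing, and lay between 0.332 and 0.874 TPM in all libraries. Rows named by locus number that the reference assigns to EIF2B4 and EIF3B did not match the name rule and are not counted here.

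The composition of the tissue differed between injured and sham-operated limbs. The 20 sarcomere genes held 22.8 and 23.7% of the listed TPM in the 2 shams and 1.55 to 12.6% in the 10 injured limbs, of which the Hya-repaired limb of pig 017 was the highest. The 10 fibroblast genes held 0.162 and 0.239% in the shams and 5.22 to 12.6% in injured limbs, and the 10 macrophage genes 0.0045 and 0.00752% against 0.0868 to 0.234%. As deposited, of 22 muscle fiber genes 16 were lower and none higher (limma adjusted p under 0.05), all 10 fibroblast and all 10 macrophage genes were higher, and of 9 endothelial genes 1 was higher. Of the 12 lymphocyte genes 6 could be tested and 5 were higher, and of 6 tested nerve and Schwann cell genes 4 were higher. Of all tested genes 49.4% were higher and 7.66% lower. MSR1, LYZ, CD2, CD3E, CD3G, CD4, NEFL, NEFM and SOX10 averaged under 1 TPM in shams, and the lower sham held under 1 TPM of NKG7. They entered the test only through injured limbs, so the filter itself favors a rise of such genes. Fewer cells of a type and less RNA per cell cannot be told apart in such samples, and the part of cell composition in the results on translation factors was not tested. The median of all 8782 tested genes lay 0.73 log2 units higher in VML-injured than sham muscle. After each library was rescaled by a trimmed mean of its gene ratios the median was 0.01. On that scale all 22 muscle fiber genes were lower, and all 10 fibroblast and all 10 macrophage genes were higher. Of the endothelial genes 2 were lower and none higher, and 3 lymphocyte and 4 nerve and Schwann cell genes were higher. Of all tested genes 29% were then higher and 28% lower. Both scales are given below, as deposited and rescaled, and a rescaled change is a change relative to the middle of all genes.

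As deposited, 15 of 45 were higher in VML-injured muscle, where 49.4% of all tested genes were, and 2 were lower, where 7.66% of all tested genes were (limma, Benjamini-Hochberg adjusted p under 0.05). Their median log2 fold change was 0.29, compared to 0.73 for all genes. Rescaled, 3 were higher against 29% of all tested genes, and 17 were lower against 28%, with a median of -0.50 compared to 0.01. Called in the same direction on both scales were EEF1A1, EIF4A1 and EIF6 as higher and EIF1 and EIF4EBP1 as lower. Another 12 were higher as deposited only, 15 were lower after rescaling only, and 13 were called on neither scale. The sign of the change turned with the scale for 25 of the 45.

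Several of these calls rested on the sham of pig 025. Without it, 6 members were higher and 0 lower as deposited, and 6 were lower rescaled. Of the 15 higher as deposited, EIF2B1, EIF2B2, EIF2D, EIF3D, EIF3G, EIF3K, EIF3L, EIF3M and EIF4G2 lost the call without it (adjusted p from 0.0526 to 0.214), and EIF2B1, EIF2S3, EIF3M and EIF4G2 lost it without the sham of pig 026. EEF1A1, EIF4A1, EIF4A3, EIF4E2 and EIF6 were called with each of the 12 limbs left out in turn. Of the 17 lower rescaled, EEF2K, EIF1, EIF3J, EIF4EBP1, EIF4EBP2 and EIF4G3 were called with each limb left out. The other 11, which were EIF1AX, EIF2A, EIF2B3, EIF2B5, EIF2S2, EIF3A, EIF3H, EIF4A2, EIF4B, EIF4E and EIF4G1, lost the call without the sham of pig 025 (adjusted p from 0.052 to 0.463). Of the 3 higher rescaled, EIF6 lost it without that sham (adjusted p = 0.0638). The values below are those with all limbs.

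**Figure D1:**
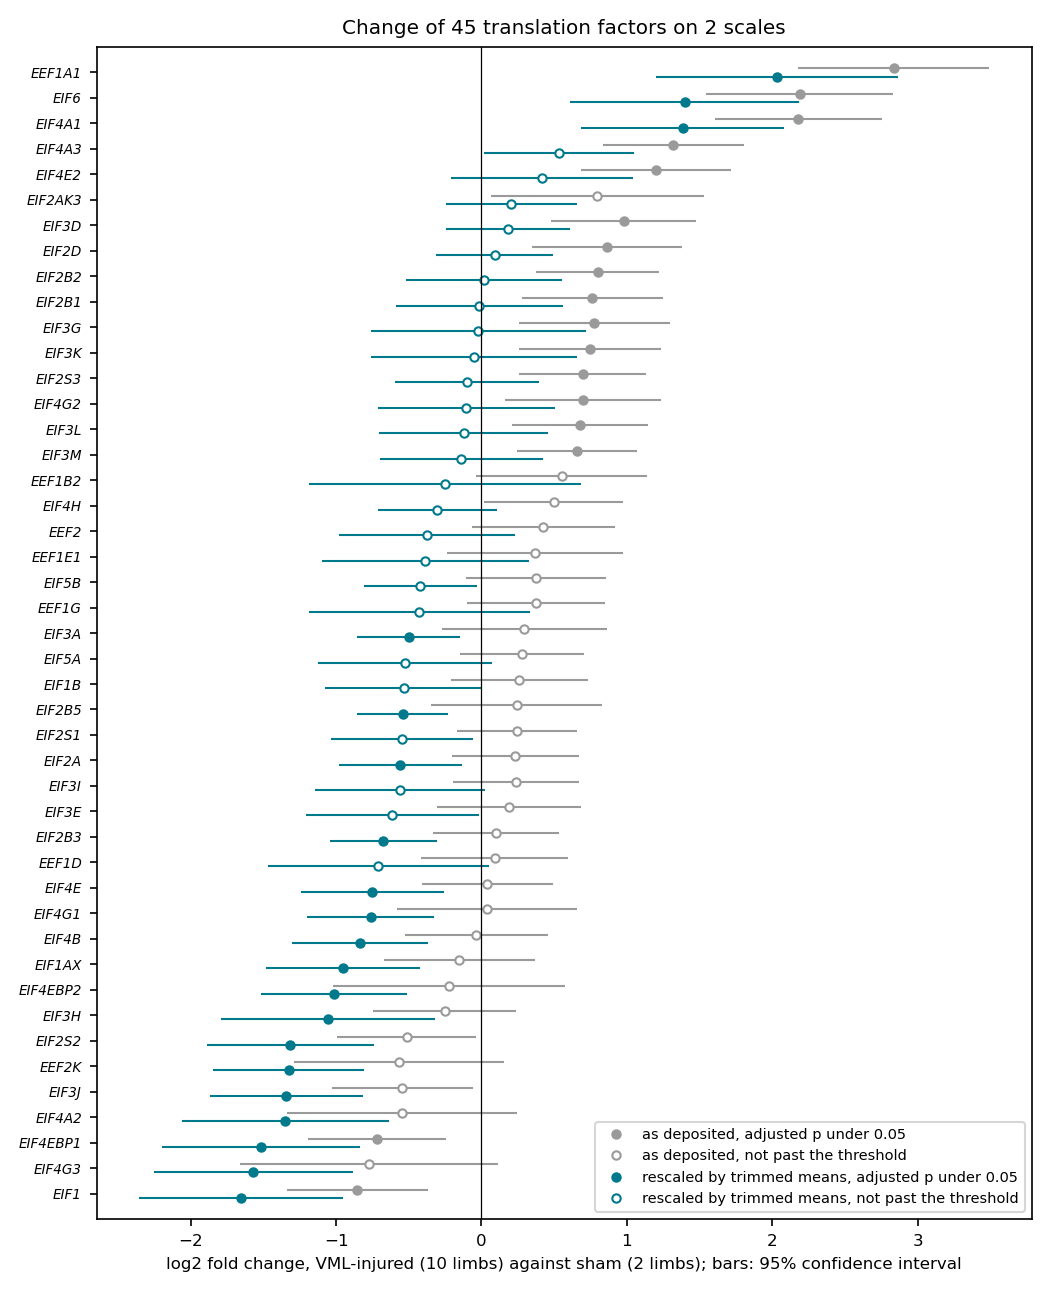
Log2 fold change (x axis) of the 45 tested translation factors (y axis) in 10 VML-injured against 2 sham-operated limbs, as deposited (grey) and rescaled by trimmed means (teal), with bars for the 95% confidence interval and filled points for an adjusted p under 0.05. EEF1A1, EIF6 and EIF4A1 lie to the right of 0 and EIF1 and EIF4EBP1 to the left with filled points on both scales, whereas the 15 genes filled in teal alone on the left are lower only after rescaling.

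EEF1A1, which carries charged tRNA to the ribosome, had the largest change of all members on both scales. It was listed at 484 and 803 TPM in the 2 shams. The 2 non-repaired limbs held 4577 and 4689 TPM. The 2 Hya-repaired limbs held 4813 TPM in pig 016 and 2763 TPM in pig 017. The 6 ECM-repaired limbs ranged from 4033 to 7055 TPM with a median of 4918. All 10 injured limbs stood above both shams with no overlap on either scale, as did 19 members as deposited (49.8% of all tested genes) and 4 members rescaled (28.6% of all tested genes). On the log2 scale it rose by 2.83 (SE 0.30, adjusted p = 1.25e-05), a 7.14-fold rise, and 2.03 rescaled (SE 0.38, adjusted p = 0.00107). That placed it at percentile 92.8 of the rescaled changes of all tested genes. EEF1A1 has many near-identical copies in mammalian genomes, and how reads were shared among copies was not tested.

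In VML-injured against sham muscle, the partners of EEF1A1 in elongation did not pass the test as deposited or rescaled by trimmed means. EEF1B2, EEF1D and EEF1G, subunits of the eEF1B complex that recharges eEF1A with GTP, had log2 fold changes of 0.55, 0.09 and 0.37 as deposited and -0.25, -0.71 and -0.43 rescaled, and none passed the test on either scale (adjusted p from 0.0986 to 0.756 as deposited). EEF2, which moves the ribosome forward by a codon, was at 638 and 828 TPM in shams and 757 to 1128 TPM in injured limbs, a log2 fold change of 0.43 (SE 0.23, adjusted p = 0.123) and -0.38 rescaled (SE 0.28, adjusted p = 0.27). The ratio of EEF1A1 to EEF2, which no scaling of a library can alter, was 0.758 and 0.969 in shams and 3.65 to 6.77 in injured limbs. The ratio of EEF1A1 to EEF1G was 0.596 and 0.877 in shams and 2.60 to 4.92 in injured limbs. These ratios were chosen after the values were seen and carry no test. In shams EEF1A1 was thus less abundant than EEF2 and EEF1G, and in every injured limb it was the more abundant.

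The share of EEF1A1 in the summed TPM of the 48 members was 6.03 and 9.39% in shams and 25.5 to 40.0% in injured limbs. All members together held 1.08 and 1.20% of the listed TPM in shams and 1.45 to 2.19% in injured limbs. Without EEF1A1 their sum was 7548 and 7749 TPM in shams and 8088 to 10573 TPM in injured limbs. EEF1A1 thus made up the larger part of the difference in the summed level.

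EEF2K, the kinase that slows elongation by phosphorylating eEF2, was a rare transcript at 6.51 and 11.6 TPM in shams and 3.90 to 10.97 TPM in injured limbs, so the groups overlapped as deposited. Its log2 fold change was -0.57 (adjusted p = 0.162), and it fell by 1.33 rescaled (SE 0.24, adjusted p = 0.000803), where all 10 injured limbs lay below both shams. EIF5A, which helps the ribosome past difficult stretches of peptide and carries the modified residue hypusine, was at 243 and 282 TPM in shams and 284 to 369 TPM in injured limbs. It did not pass the test on either scale (0.28, adjusted p = 0.244; -0.52 rescaled, adjusted p = 0.122). EEF1E1, a subunit of the tRNA synthetase complex despite its name, lay at 5.18 to 13.5 TPM over all libraries and did not pass it either.

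**Figure D2:**
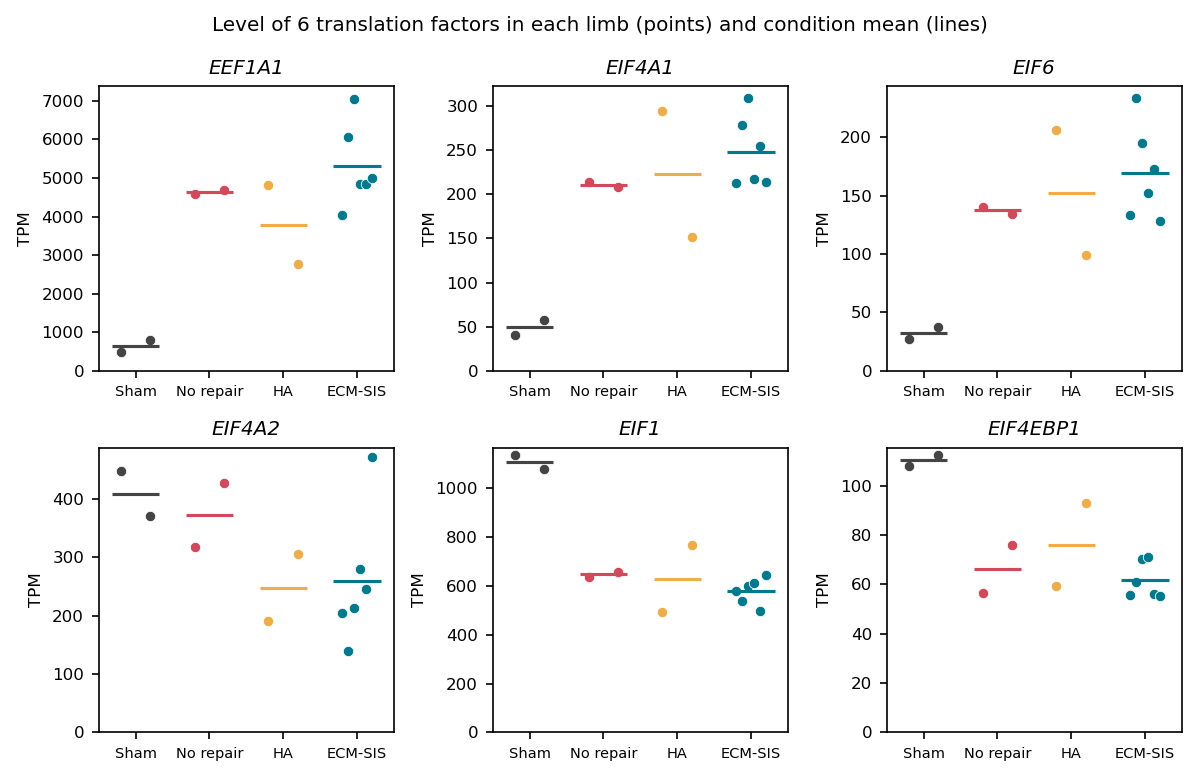
Level in TPM (y axes from 0) of EEF1A1, EIF4A1, EIF6, EIF4A2, EIF1 and EIF4EBP1 in each limb (points) with the condition mean (lines), for 2 Sham, 2 No repair, 2 HA and 6 ECM-SIS limbs. Every injured limb stands above both shams for EEF1A1, EIF4A1 and EIF6 and below both for EIF1 and EIF4EBP1, whereas for EIF4A2 an ECM-SIS limb at 471 TPM and a No repair limb at 427 TPM reach the sham values of 447 and 370 TPM.

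Among initiation factors, the balance of the eIF4A helicases differed between sham and injured muscle. EIF4A1 and EIF4A2 are close relatives that unwind the leader of the mRNA as part of the cap complex. EIF4A1 was at 41.2 and 57.2 TPM in shams. It was at 213 and 208 TPM in non-repaired limbs, at 294 and 152 TPM in Hya-repaired limbs, and from 213 to 309 TPM with a median of 236 in ECM-repaired limbs. It rose by a log2 fold change of 2.18 (SE 0.27, adjusted p = 2.99e-05) and 1.38 rescaled (SE 0.32, adjusted p = 0.00339), with all 10 injured limbs above both shams.

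EIF4A2 was the more abundant of the pair in shams. It was at 447 and 370 TPM in shams, at 317 and 427 TPM in non-repaired limbs, at 190 and 306 TPM in Hya-repaired limbs, and from 139 to 471 TPM with a median of 229 in ECM-repaired limbs. As deposited, 8 of 10 injured limbs lay below both shams and the log2 fold change of -0.55 did not pass the test (SE 0.37, adjusted p = 0.212). Rescaled, all 10 lay below and it fell by 1.35 (SE 0.33, adjusted p = 0.00439), which without the sham of pig 025 missed the threshold (adjusted p = 0.0916). The ratio of EIF4A1 to EIF4A2 was 0.0922 and 0.155 in shams and 0.455 to 1.99 in injured limbs, a mean difference of 2.87 on the log2 scale. It was lowest in the ECM-repaired limb of pig 024 and highest in that of pig 014. This ratio, too, was chosen after the values were seen. Of the 10 injured limbs, 5 held more EIF4A1 than EIF4A2, whereas both shams held more EIF4A2.

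EIF4A3, the related helicase of the exon junction complex that marks spliced mRNA, rose from 16.7 and 20.1 TPM to 31.6 to 58.8 TPM, a log2 fold change of 1.32 (SE 0.22, adjusted p = 0.000369). Rescaled it was 0.53 (SE 0.24) and did not pass the test (adjusted p = 0.0707), although all 10 injured limbs still lay above both shams.

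Each scaffold of the cap complex was called on 1 scale only, EIF4G1 and EIF4G3 as lower rescaled and EIF4G2 as higher as deposited. EIF4G1, the main scaffold that joins the cap-binding protein to the helicase, was at 94.8 and 114 TPM in shams and 67.5 to 149 TPM in injured limbs (log2 fold change 0.04, adjusted p = 0.921; -0.76 rescaled, adjusted p = 0.00683). EIF4G3, its close relative, was at 69.3 and 77.0 TPM in shams, at 46.2 and 65.8 TPM in non-repaired limbs, at 33.6 and 46.4 TPM in Hya-repaired limbs and from 19.9 to 78.4 TPM with a median of 36.9 in ECM-repaired limbs. It lay below both shams in 9 of 10 injured limbs, the exception being the ECM-repaired limb of pig 024, with a log2 fold change of -0.77 (SE 0.41, adjusted p = 0.123) and a fall of 1.57 rescaled (SE 0.31, adjusted p = 0.00149). EIF4G2, a scaffold relative that lacks the binding site for the cap-binding protein and is among the most abundant members, rose from 786 and 727 TPM to 804 to 1540 TPM (log2 fold change 0.70, adjusted p = 0.03), but was -0.10 rescaled (adjusted p = 0.773).

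EIF4E, the protein that binds the cap, was at 38.9 and 32.7 TPM in shams and 29.6 to 48.2 TPM in injured limbs as deposited (log2 fold change 0.04, SE 0.21, adjusted p = 0.877), and fell by 0.75 rescaled (SE 0.23, adjusted p = 0.0138). EIF4E2, a relative that binds the cap but represses translation, rose from 13.5 and 18.7 TPM to 27.1 to 51.7 TPM, with log2 fold changes of 1.20 (SE 0.24, adjusted p = 0.00109) and 0.42 rescaled (adjusted p = 0.235). EIF4B and EIF4H, which help the helicase, had log2 fold changes of -0.03 and 0.50 as deposited, neither past the test. EIF4B fell by 0.84 rescaled (adjusted p = 0.00629), and EIF4H was at -0.30 (adjusted p = 0.189).

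Repressors that hold EIF4E away from the scaffold are counted among the members. EIF4EBP1, a target of mTORC1, was at 108 and 113 TPM in shams. It was at 56.4 and 76.0 TPM in non-repaired limbs, at 59.3 and 93.0 TPM in Hya-repaired limbs, and from 55.3 to 71.3 TPM with a median of 58.6 in ECM-repaired limbs, so no injured limb reached a sham. It fell by 0.72 on the log2 scale (SE 0.22, adjusted p = 0.014) and by 1.52 rescaled (SE 0.31, adjusted p = 0.00173). With either sham left out, the adjusted p as deposited was 0.0846 (sham of pig 025 left out) or 0.0887 (sham of pig 026 left out). EIF4EBP2 was at 28.3 and 36.3 TPM in shams and 18.2 to 56.3 TPM in injured limbs, with a log2 fold change of -0.22 (adjusted p = 0.619) and a fall of 1.02 rescaled (SE 0.23, adjusted p = 0.00315).

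EIF1, which keeps the scanning ribosome from starting at the wrong codon, had the largest fall of the members on both scales. It was at 1135 and 1078 TPM in shams. It was at 637 and 657 TPM in non-repaired limbs, at 493 and 767 TPM in Hya-repaired limbs, and from 498 to 646 TPM with a median of 589 in ECM-repaired limbs. All 10 injured limbs lay below both shams, as did 3 members as deposited (8.52% of all tested genes) and 21 rescaled (27.8% of all tested genes). EIF1 fell by 0.85 (SE 0.22, adjusted p = 0.00626) and by 1.65 rescaled (SE 0.32, adjusted p = 0.00127). Without the sham of pig 025 the adjusted p as deposited was 0.0702.

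Its close relative EIF1B did not pass the test, at 54.7 and 51.3 TPM in shams and 46.7 to 86.4 TPM in injured limbs (log2 fold change 0.26, adjusted p = 0.321; -0.54 rescaled, adjusted p = 0.0817). EIF1AX, which works with EIF1 in scanning, was at 112 and 83.4 TPM in shams and 68.0 to 132 TPM in injured limbs (-0.15, adjusted p = 0.601; -0.95 rescaled, adjusted p = 0.00578). EIF5B, which joins the large subunit, was at 51.7 and 49.7 TPM in shams and 48.9 to 82.1 TPM in injured limbs. In VML-injured against sham muscle it did not pass the test on either scale. In ECM-repaired muscle alone it was lower rescaled (adjusted p = 0.0294), a call lost in 2 of the 12 fits with a limb left out.

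EIF6, which binds the large ribosomal subunit and keeps it from joining the small subunit too early, was higher on both scales. It was at 27.2 and 37.9 TPM in shams, at 141 and 135 TPM in non-repaired limbs, at 206 and 99.3 TPM in Hya-repaired limbs, and from 128 to 234 TPM with a median of 162 in ECM-repaired limbs. No injured limb overlapped the shams. The log2 fold change was 2.19 (SE 0.30, adjusted p = 6.42e-05) and 1.40 rescaled (SE 0.36, adjusted p = 0.00625).

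The 3 subunits of eIF2, the complex that delivers the initiator tRNA, were called differently. EIF2S1, the subunit that stress kinases phosphorylate, was at 28.8 and 25.6 TPM in shams and 28.2 to 39.5 TPM in injured limbs (log2 fold change 0.25, SE 0.19, adjusted p = 0.281; -0.55 rescaled, adjusted p = 0.0549). EIF2S2, the subunit that contacts the factors acting on eIF2, was at 151 and 114 TPM in shams, at 96.9 and 130 TPM in non-repaired limbs, at 71.6 and 96.1 TPM in Hya-repaired limbs, and from 68.0 to 98.5 TPM with a median of 81.6 in ECM-repaired limbs. It lay below both shams in 9 of 10 injured limbs (-0.52, SE 0.22, adjusted p = 0.0605) and fell by 1.31 rescaled (SE 0.26, adjusted p = 0.00151; 0.052 without the sham of pig 025). EIF2S3, which binds GTP, rose from 49.5 and 39.1 TPM to 55.9 to 89.1 TPM (0.70, adjusted p = 0.011) and was at -0.10 rescaled (adjusted p = 0.732).

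EIF2D, which can place a tRNA without eIF2, rose from 10.02 and 13.1 TPM to 16.04 to 28.1 TPM (log2 fold change 0.87, SE 0.24, adjusted p = 0.00851; 0.09 rescaled). EIF2A, a protein named for a similar activity, was at 0.23 as deposited (adjusted p = 0.335) and fell by 0.56 rescaled (adjusted p = 0.0273). EIF2AK3, the kinase PERK that senses stress in the endoplasmic reticulum, was the only eIF2 kinase in the table under these names. It was at 0.871 and 1.13 TPM in shams and 1.13 to 3.43 TPM in injured limbs. Because the sham of pig 025 held under 1 TPM, EIF2AK3 entered the test only through injured limbs, so the filter itself favors its rise. In VML-injured against sham muscle it did not pass the test (0.80, SE 0.34, adjusted p = 0.0595, and 0.20 rescaled, adjusted p = 0.421). In non-repaired muscle alone it was higher as deposited (adjusted p = 0.0361), a call lost in 5 of the 12 fits with a limb left out.

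Of the subunits of eIF2B, which reloads eIF2 with GTP, 4 matched the name rule and 2 of them were called as deposited. EIF2B4, on a row named by locus number, was at 0.42 (adjusted p = 0.164) and -0.37 rescaled (adjusted p = 0.0557). The median of all tested genes as deposited was 0.73. EIF2B1 and EIF2B2 rose, with log2 fold changes of 0.76 (adjusted p = 0.0122) and 0.80 (adjusted p = 0.00413), and were at -0.01 and 0.02 rescaled. EIF2B3 and EIF2B5, of the catalytic part, were at 0.10 and 0.24 (adjusted p = 0.683 and 0.458) and fell by 0.67 and 0.54 rescaled (adjusted p = 0.00539 and 0.00736).

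Of the subunits of eIF3, the scaffold on the small ribosomal subunit, 10 matched the name rule. As deposited 5 of these rose and none fell, where 49.4 and 7.66% of all tested genes did. After rescaling none rose and 3 fell, where 29 and 28% of all tested genes did. Without the sham of pig 025 the call of EIF3J alone was kept among these subunits. EIF3D, a subunit that can itself bind the cap of some mRNAs, rose from 37.5 and 49.1 TPM to 67.2 to 107 TPM (log2 fold change 0.98, SE 0.23, adjusted p = 0.00338; 0.18 rescaled, adjusted p = 0.444). EIF3G, EIF3K, EIF3L and EIF3M rose by 0.66 to 0.78 as deposited and lay between -0.14 and -0.02 rescaled. EIF3J, a loosely held subunit, was at 103 and 82.1 TPM in shams, at 62.0 and 80.7 TPM in non-repaired limbs, at 50.6 and 69.5 TPM in Hya-repaired limbs, and from 49.0 to 77.5 TPM with a median of 56.0 in ECM-repaired limbs. It lay below both shams in all 10 injured limbs, with a log2 fold change of -0.54 (SE 0.22, adjusted p = 0.0524) and a fall of 1.34 rescaled (SE 0.24, adjusted p = 0.000842).

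EIF3H was at -0.25 (adjusted p = 0.348) and fell by 1.05 rescaled (SE 0.34, adjusted p = 0.0187), and EIF3A, the largest subunit, was at 0.29 (adjusted p = 0.347) and fell by 0.50 rescaled (adjusted p = 0.0205). EIF3E and EIF3I passed the test on neither scale, with 0.19 and 0.24 as deposited. EIF3B, on a row named by locus number and not counted above, was at 0.36 (adjusted p = 0.26). It fell by 0.43 rescaled (adjusted p = 0.0454).

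Each injured condition was also set against the 2 shams, which all 3 comparisons share. In ECM-repaired muscle 16 members were higher (48% of all tested genes) and 4 lower (10%), and rescaled 4 were higher (29.5%) and 18 lower (29.4%). In non-repaired muscle 12 were higher (45.1%) and 2 lower (1.18%), and rescaled 2 were higher (22.1%) and 14 lower (20.8%). In Hya-repaired muscle 8 were higher (33.9%) and 1 lower (3.76%), and rescaled 3 were higher (23.4%) and 11 lower (19.2%). The counts of Hya-repaired muscle as deposited, both directions together, went to 17 without the limb of pig 017 and to 3 without that of pig 016.

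EEF1A1 had log2 fold changes of 3.06 (SE 0.31), 2.89 (SE 0.38) and 2.55 (SE 0.38) in ECM-repaired, non-repaired and Hya-repaired muscle, and 2.28, 1.90 and 1.92 rescaled. EIF4A1 had 2.32, 2.11 and 2.11, and 1.54, 1.12 and 1.49 rescaled. With all limbs both passed the test in every condition and on both scales. Without the sham of pig 025 the rescaled calls of both were lost in non-repaired and Hya-repaired muscle. In non-repaired muscle the rescaled call of EIF4A1 (adjusted p = 0.0418) was lost in 7 of the 12 fits with a limb left out. That of EEF1A1 was also lost there without the non-repaired limb of pig 017. In Hya-repaired muscle the rescaled calls of both were also lost without the limb of pig 016. EIF6 passed the test except in non-repaired muscle rescaled (1.10, SE 0.45, adjusted p = 0.0685). Its rescaled call in Hya-repaired muscle was lost without the limb of pig 016 and with either sham left out. With all limbs EIF1 was lower in every condition and on both scales. Rescaled, its call was lost without the sham of pig 025 in non-repaired and Hya-repaired muscle. In Hya-repaired muscle it was also lost without the limb of pig 016. As deposited, its call in non-repaired muscle (adjusted p = 0.0384) was lost in 8 of the 12 fits with a limb left out, 4 of them without an ECM-repaired limb, and its call in Hya-repaired muscle (adjusted p = 0.0313) in 5 of the 12 and with only the compared conditions fitted (adjusted p = 0.246). EIF4EBP1 was also lower with all limbs, except in Hya-repaired muscle as deposited (-0.57, SE 0.27, adjusted p = 0.118). Its call in non-repaired muscle as deposited was lost in 8 of the 12 as well, and that in ECM-repaired muscle with either sham left out. Rescaled, its call was lost without the sham of pig 025 in non-repaired muscle. In Hya-repaired muscle the rescaled call was lost with either sham left out and without the limb of pig 016. EIF4A3 passed the test rescaled in ECM-repaired muscle, a call lost with either sham left out. No difference of it between injured conditions was called.

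**Figure D3:**
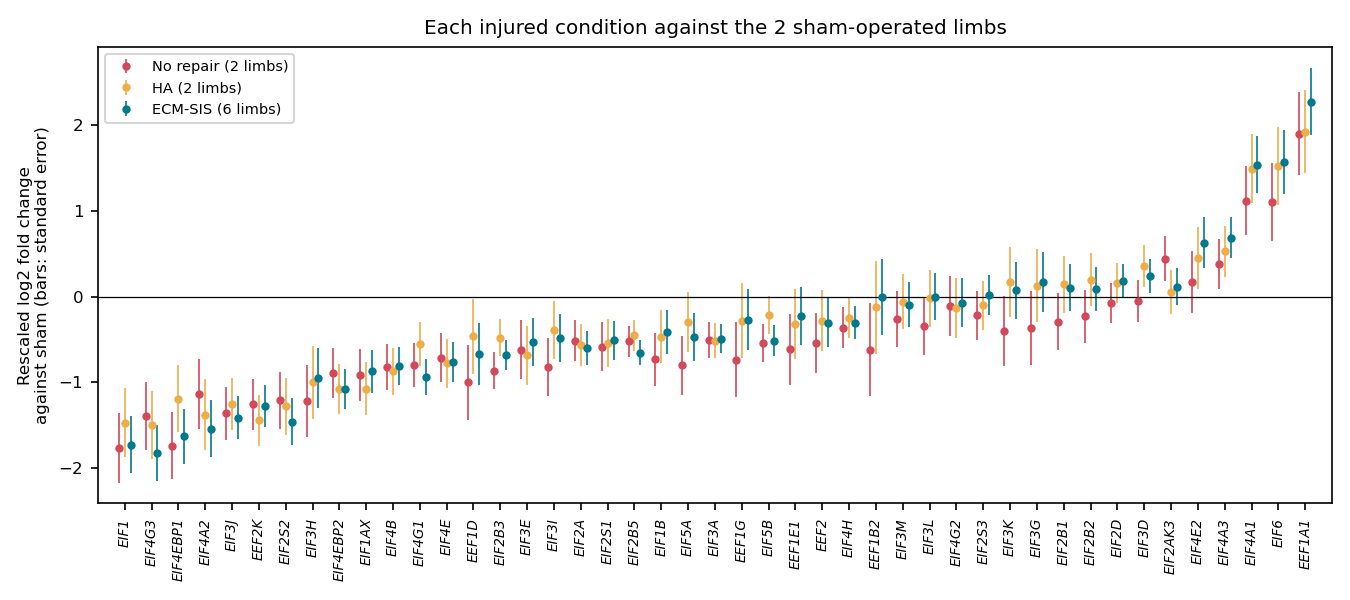
Rescaled log2 fold change against the 2 sham-operated limbs (y axis, bars for the standard error) of the 45 tested members (x axis, in the order of their change in all injured limbs) for No repair (2 limbs), HA (2 limbs) and ECM-SIS (6 limbs). The 3 conditions range from -1.77 to -1.47 for EIF1 on the left and from 1.90 to 2.28 for EEF1A1 on the right.

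Between the injured conditions no member was called and no member had an unadjusted p under 0.05 (limma), in ECM-repaired against non-repaired, ECM-repaired against Hya-repaired, Hya-repaired against non-repaired, or ECM-repaired against the other injured limbs. No gene of the 8782 was called in these comparisons either (0%). The member nearest to the threshold was EIF2S2 in ECM-repaired against non-repaired muscle, with a log2 difference of -0.45. For EEF1A1, ECM-repaired muscle was 0.17 higher than non-repaired muscle (95% confidence interval from -0.51 to 0.85) and 0.52 higher than Hya-repaired muscle (from -0.16 to 1.20). For EIF4A1 the same differences were 0.22 (from -0.38 to 0.81) and 0.21 (from -0.38 to 0.80), and for EIF4A2 -0.61 (from -1.42 to 0.20) and 0.00 (from -0.81 to 0.81). With 2 limbs in each of these conditions, the intervals of EEF1A1 leave room for a difference of over 1.5-fold in either comparison.

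The injured limbs differed in how much sarcomere RNA they held, and EEF1A1 and EIF4A1 differed with it. Over the 10 injured limbs, log2(TPM + 0.5) of EEF1A1 was lower where the sarcomere share was higher (Pearson r = -0.87, permutation p = 0.00522, adjusted over 4 relations 0.00696; Spearman rho = -0.68, permutation p = 0.0357, adjusted 0.0476, two-sided). Without the ECM-repaired limb of pig 014 and the Hya-repaired limb of pig 017, the farthest from the median share, r was -0.60 (exact permutation p = 0.173), so the relation of EEF1A1 rests on those limbs. Without the limb of pig 017 alone r was -0.68 (exact permutation p = 0.0532). Within the 6 ECM-repaired limbs r was -0.87 (exact permutation p = 0.0333) and rho was -0.71 (exact permutation p = 0.136).

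EIF4A1, chosen for this relation after its values were seen, had r = -0.96 (permutation p = 0.0002, adjusted 0.0008) and rho = -0.90 (permutation p = 0.00078, adjusted 0.00312). Without the same 2 limbs r was -0.94 (exact permutation p = 0.00466), and within ECM-repaired limbs it was -0.90 (exact permutation p = 0.0194). EIF4A2 had r = 0.56 (permutation p = 0.0915) and rho = 0.60 (permutation p = 0.0736). The log2 ratio of EIF4A1 to EIF4A2 had r = -0.78 (permutation p = 0.004, adjusted 0.00696) and rho = -0.79 (permutation p = 0.00854, adjusted 0.0171), -0.74 without the 2 limbs (exact permutation p = 0.0322) and -0.72 within ECM-repaired limbs (exact permutation p = 0.0917). TPM of all genes share a fixed sum, so a library with less sarcomere RNA leaves more TPM to other genes, and only the ratio is free of that.

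**Figure D4:**
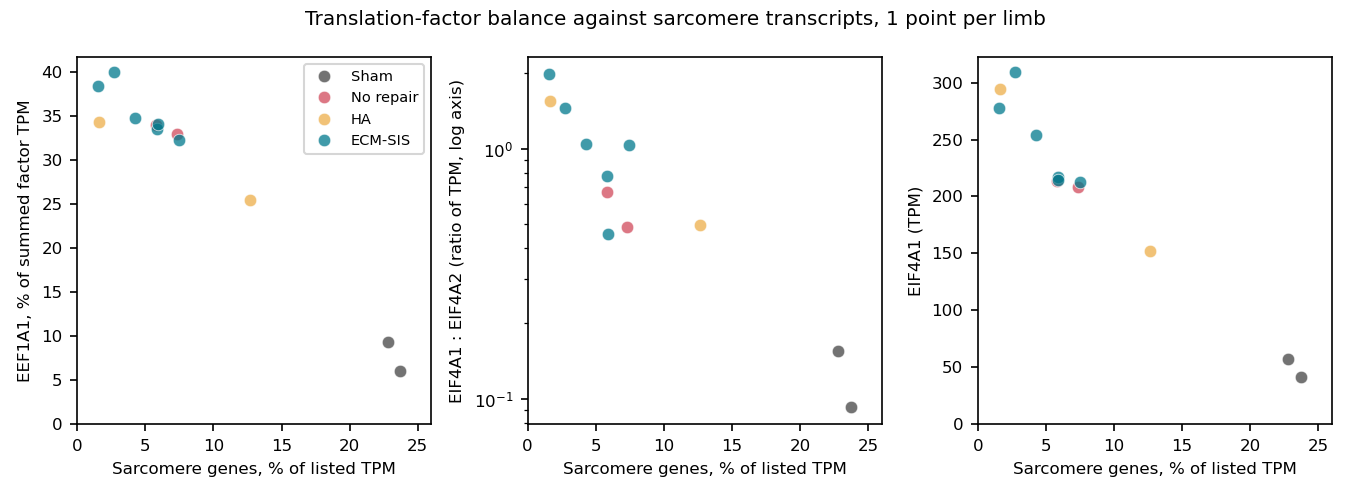
Share of EEF1A1 in the summed TPM of the 48 members (left), ratio of EIF4A1 to EIF4A2 on a log axis (middle) and EIF4A1 in TPM (right) against the share of 20 sarcomere genes in listed TPM (x axes), 1 point per limb, colored by condition, with some points overlapping. The 2 shams lie apart at over 22% sarcomere RNA, and the Hya-repaired limb of pig 017, at 12.6%, is the injured limb nearest to them in EEF1A1 share (25.5%) and in EIF4A1 (152 TPM).

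The 5 genes outside the members whose log2 level was most like that of EEF1A1 over the 12 libraries were ARPC5, a subunit of the complex that branches actin filaments (Pearson r = 0.996), GLIPR2 (0.995), LOC100738973 (0.994), PTN, a secreted growth factor (0.994) and MAOA, monoamine oxidase A (0.994). All 5 were higher in injured muscle, from a log2 fold change of 1.87 for MAOA to 7.16 for PTN. Such correlations are set by the gap between the 2 shams and the 10 injured limbs and describe these libraries only.

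Lists of related genes are given by their counts, beside which 49.4% of all tested genes were higher and 7.66% lower as deposited, and 29% higher and 28% lower rescaled. Among the partners of initiation, members of the poly(A)-binding protein family were called in opposite directions. PABPC1, the main cytoplasmic poly(A)-binding protein, averaged 74.99 ± 10.5 TPM (SD) in the 2 shams and 377 ± 68.0 TPM (SD) in the 10 injured limbs, and rose by 2.23 on the log2 scale (SE 0.24, adjusted p = 1.22e-05) and 1.43 rescaled (adjusted p = 0.00127). PABPC4, a relative of it, fell by 1.16 (SE 0.34, adjusted p = 0.0124) and by 1.96 rescaled, and PAIP2B, an inhibitor of poly(A)-binding protein, fell by 2.03 (SE 0.35, adjusted p = 0.000433) and fell by 2.72 rescaled. Of the 5 tested genes of this list 1 was higher and 2 lower as deposited, and 1 higher and 4 lower rescaled.

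Of 5 tested termination and recycling factors 1 was higher and 1 lower, and rescaled 1 was higher and 3 lower. GSPT2, a form of release factor eRF3, averaged 1.11 ± 0.368 TPM (SD) in shams and 7.88 ± 2.47 TPM (SD) in injured limbs. It rose by 2.18 (adjusted p = 4.42e-05) and 1.57 rescaled (adjusted p = 0.00178). The lower sham held under 1 TPM, so GSPT2 entered the test only through injured limbs and the filter itself favors its rise. The more abundant GSPT1, with the same role, was at 0.40 (adjusted p = 0.113) and -0.39 rescaled (adjusted p = 0.0557). HBS1L, which rescues stalled ribosomes, fell by 0.60 (adjusted p = 0.0468) and by 1.39 rescaled. Of 9 other initiation factors 4 were higher and 2 lower as deposited, and 1 higher and 5 lower rescaled. Their 3 smallest p-values belonged to MIF4GD, with a log2 fold change of 1.78 (0.99 rescaled), BZW1 with 0.98 (0.18 rescaled) and NCBP2, part of the nuclear cap-binding complex, with 0.82 (0.04 rescaled).

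Of 16 tested cytosolic aminoacyl-tRNA synthetases, which charge tRNAs, 11 were higher and 1 lower as deposited with a median log2 fold change of 0.67, close to the 0.73 of all genes. Rescaled, 2 were higher and 4 lower. WARS and GARS, for tryptophan and glycine, rose by 1.66 and 1.60 (rescaled 0.90 and 0.81), and RARS, for arginine, by 1.19 (0.40 rescaled). Of 33 ribosomal protein genes 25 were higher as deposited and 1 rescaled, with medians of 1.02 and 0.22. The members whose mRNAs are known to carry the 5′ terminal oligopyrimidine tract, which ties ribosomal proteins and elongation factors to mTORC1, numbered 9 in the tests, of which 1, EEF1A1, was higher and none lower as deposited and 1 was higher and 3 lower rescaled, with a median of 0.29 and -0.50. Of all tested genes 49.4% were higher and 7.66% lower as deposited, and 29% were higher and 28% lower rescaled.

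Of 7 tested mitochondrial translation factors, none was higher and 2 were lower as deposited, and 5 were lower rescaled. GFM1, the mitochondrial elongation factor G, fell by 0.97 (adjusted p = 0.0226) and by 1.76 rescaled, MTIF2, an initiation factor, fell by 0.75 (adjusted p = 0.0478) and by 1.52 rescaled, and MTRF1, a release factor, was at -0.61 (adjusted p = 0.0955) and fell by 1.35 rescaled.

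Of 5 tested enzymes that build hypusine on eIF5A or diphthamide on eEF2, 2 were higher as deposited and 1 higher and 2 lower rescaled. DPH6 rose by 1.39 (0.75 rescaled, adjusted p = 0.00535) and DPH5 by 0.66, both of diphthamide, whereas DHPS, the first enzyme of hypusine, was at -0.67 (adjusted p = 0.0726) and fell by 1.46 rescaled (adjusted p = 0.00224).

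Of 18 tested genes of mTORC1 and cap-complex signaling 6 were higher and 1 lower as deposited, and 1 higher and 10 lower rescaled, beside 49.4 and 7.66% of all tested genes as deposited and 29 and 28% rescaled. AKT1, a kinase upstream of mTORC1, rose by 1.75 (0.95 rescaled, adjusted p = 0.00796), RRAGC, a GTPase that places mTORC1 on lysosomes, by 1.03 (0.25 rescaled), and MKNK1, a kinase of EIF4E, by 1.04 (0.28 rescaled). The lower gene was RRAGD, a GTPase of the same family as RRAGC, which fell by 1.90 (SE 0.61, adjusted p = 0.0189) and by 2.68 rescaled. MTOR, the kinase itself, did not pass the test as deposited (adjusted p = 0.0767) and fell by 1.80 rescaled (adjusted p = 0.00201). Both were named after their values were seen. Of 10 tested genes of the response to eIF2 phosphorylation 5 were higher and 2 lower as deposited, and 1 higher and 3 lower rescaled. PSAT1, of serine synthesis, rose by 2.70 (2.01 rescaled, adjusted p = 0.000179), PPP1CA, a phosphatase catalytic subunit, by 1.54 (0.75 rescaled) and ASNS, asparagine synthetase, by 1.37 (0.60 rescaled). ATF4, the transcription factor whose own translation eIF2 phosphorylation favors, was named after its values were seen. Its transcript fell by 0.87 (adjusted p = 0.0394) and by 1.67 rescaled (adjusted p = 0.00212), with means of 1179 ± 80.3 TPM (SD) in shams and 627 ± 193 TPM (SD) in injured limbs.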

How the data were processed

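The authors pseudoaligned paired-end RNA-seq reads of the 12 limbs to a pig genome (build 9.2) with kallisto, and deposited TPM values for 11506 named genes. Per the labels, libraries averaged 55 M reads. TPM keep no read count, so the depth of each library is unknown and no count test was run. No coordinates or sequences were used here. Values were transformed as log2(TPM + 0.5), so changes of low genes are understated. A gene was kept where each library of some condition had 1 TPM or more, and the 8782 kept genes were fitted with limma 3.58.1 in R 4.3.3, with 1 coefficient per condition, trend and robust estimation, and Benjamini-Hochberg adjustment over them. VML-injured is the mean of the 3 injured conditions. Libraries were rescaled to one another by a trimmed mean (30% of the ratios and 5% of the abundances cut). Relations over limbs were tested by permutation in SciPy 1.17.1 with 100000 resamples, or exactly with fewer than 10 limbs. The scripts were tested on simulated data. Alternatives were 3 rescalings, pseudocounts of 0.1 and 1, filters, limma options, a 2-fold threshold and limbs left out. The members and lists were chosen with earlier results of these data known. Members were named if they were EEF1A1, EEF2, EIF5A, EIF6, EIF4E, EIF4EBP1 or EIF2S1 or had 1 of the 8 largest rises or falls rescaled, and each list by its 3 smallest p-values, while other members are given by role.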

Additional observations from a re-analysis of the deposited data

Results flagged for a closer look

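In the 6 ECM-repaired limbs, the highest level of EIF1AX, a scanning factor, stood apart from the others. The limb of pig 024 held 132 TPM, whereas the other 5 held 76.6 to 92.3 TPM, and the gap was 0.658 of the whole range on the log2 scale, above Dixon's 95% critical value of 0.625. It was the only one of 45 members tested in this way, where chance flags about 1 in 20. The gap was computed as deposited only. Rescaling divides the library of pig 024 by 1.60, the largest factor of all libraries. The factors of the other 5 ECM-repaired limbs lay between 0.911 and 1.15. Divided by these factors, the EIF1AX level of pig 024 lay within the range of the other 5 ECM-repaired limbs.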

How the results depend on the processing

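EEF1A1, EIF4A1 and EIF6 were higher in VML-injured muscle under every alternative fitted as deposited and under each rescaling of all limbs, and EIF6 missed the threshold rescaled without the sham of pig 025. The 15 members higher as deposited became 3 under each of the 3 rescalings, 5 with a 2-fold threshold and 6 to 17 with a limb left out, 6 being without the sham of pig 025. The 2 lower became 17 by trimmed means, 18 by median of ratios, 28 without the 100 most abundant sham genes, 0 with a 2-fold threshold and 0 to 6 with a limb left out: 4 without the Hya-repaired limb of pig 017, 6 without the ECM-repaired limb of pig 024, 0 without the sham of pig 025 and 1 without that of pig 026. The 17 lower by trimmed means became 28 without the most abundant sham genes and 6 to 19 with a limb left out, 6 being without the sham of pig 025. The 20 members called in ECM-repaired muscle became 6 with a 2-fold threshold and 8 to 24 with a limb left out, 8 being without the sham of pig 025. The 14 of non-repaired muscle became 6 with a 2-fold threshold, 6 without both limbs of pig 017 and 4 to 15 with a limb left out: 4 or 5 without either of its own limbs, 5 without the sham of pig 025 and 7 without that of pig 026. The 9 of Hya-repaired muscle became 14, 16 and 26 by trimmed means, median of ratios and without the most abundant sham genes, 5 with a 2-fold threshold, 3 with only the compared conditions fitted, 15 without both limbs of pig 017 and 3 to 17 with a limb left out, 3 being without the sham of pig 025. Between injured conditions the count stayed 0 in all alternatives. The log2 fold change turned for 25 of the 45 members by trimmed means, 25 by median of ratios and 29 without the most abundant sham genes. Among the members named by rule it turned in all 3 for EEF2 (-0.38, -0.39 and -0.67), EIF5A (-0.52, -0.54 and -0.82), EIF4E (-0.75, -0.77 and -1.04) and EIF2S1 (-0.55, -0.56 and -0.83), and in the last alone, as for EIF2B2 outside the rule, for EIF2AK3 (-0.017), EIF3D (-0.11) and EIF2D (-0.20). EIF4E also turned with a limb left out (-0.083 to 0.16). The relation of EEF1A1 to sarcomere share was -0.67 without both limbs of pig 017 (exact permutation p = 0.0759) and -0.94 to -0.68 with a limb left out. The cause of these changes was not tested. Limbs left out after rescaling, the relation to log2 of the share (r = -0.74) and the ratio of EIF4A1 to EIF4A2 were added after seeing the data. The ratio of EEF1A2 to EEF1A1 was not run. No paired analysis was possible because only pig 017 gave limbs to 2 conditions. With 2 shams and no counts, neither the depth of each library nor the spread of sham muscle is well known.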
